A study of Mus musculus with 4 samples.

Results

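Plasma cells, the antibody-secreting end stage of the B cell lineage, were examined in single-cell RNA profiles of mouse lung. They were chosen by their own RNA. A kept cell (at least 300 genes and at most 20% of its unique molecular identifiers, UMIs, from mitochondrial genes) was a member when at least 4 of 7 genes had a UMI (Jchain, Mzb1, Derl3, Tnfrsf17, Sdc1, Xbp1 and Eaf2). One of Tnfrsf17, Sdc1 and Derl3 had to be among them, and Siglech, Cd3e, Csf1r, Cdh5 and Ms4a1, which mark other cell types, had to be at 0. This rule found 192 of 53463 kept cells.

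Each of the 4 libraries was made from dissociated whole lung, 2 from Galt gene-edited mice (GAL) and 2 from wild-type mice (WT). All lungs had been minced and digested to free the cells, which were then barcoded in droplets, and no other treatment is given in the labels. The kind of edit, the strain, age and sex of the mice and the way animals map to libraries are not given in the sources used here, so p-values measure only the spread between these 4 samples, which may be technical. The product of Galt, galactose-1-phosphate uridylyltransferase, acts in galactose breakdown (the Leloir pathway), and the series asks how the lung cells of the edited mice differ.

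A plasma cell arises when an activated B cell switches on Prdm1, Irf4 and Xbp1, gives up its B cell receptor and antigen presentation, and enlarges its endoplasmic reticulum (ER) to fold and export antibody. In mucosal tissues such as the airways, many plasma cells make IgA, which is joined into dimers by the J chain (Jchain) and carried across the epithelium. Dividing precursors, called plasmablasts, precede the long-lived cells that no longer divide.

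The libraries held 56218178 to 62406681 UMIs in all, no barcode had fewer than 500, and median UMIs per kept cell were 3783 and 2911 in GAL and 2536 and 2473 in WT. Plasma cells were deeper, with medians of 12210 and 15716 UMIs in GAL and 11135 and 8369 in WT. Between 107 and 149 barcodes were shared by each pair of libraries. Of the members, 6 had a barcode that also occurs in another library, and 0 shared one with a member there.

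The rule genes, given as a description, had these levels in the cells they chose. Jchain had a UMI in 100% of members of every library, with median counts of 325.5, 747, 321 and 187.5 UMIs per cell in GAL replicates 1 and 2 and WT replicates 1 and 2. Xbp1, the transcription factor that expands the ER, was found in 94.1% to 100% of members. Derl3, part of the machinery that removes misfolded proteins from the ER, was found in 80.4% to 90.6%. Tnfrsf17 (BCMA), the receptor for the survival factors APRIL and BAFF, was found in 66.7% to 81.3%, and Sdc1 (CD138), the classical surface marker, in 40% to 77.2%. Jchain UMIs also reached 1.14% to 18.6% of T cells, which do not make it, with median depths of 2308 to 3572 UMIs, so a single Jchain UMI does not mark a plasma cell in these libraries.

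On GRCm38 (GENCODE M21), Jchain lies on the minus strand of chr5:88519809-88527891, Igha on that of chr12:113254830-113260236, Ly6c2 on that of chr15:75108158-75111970 and Ccr10 on that of chr11:101172997-101175443.

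At the threshold, the 19 members with exactly 4 of the 7 genes had a median of 23 Jchain UMIs and 14.6% of their UMIs from antibody genes. The 99 cells just outside, with 3 of the 7, had a median of 1 Jchain UMI and 0.0208% antibody UMIs. The barred genes removed 19, 37, 14 and 10 cells of the 4 libraries that passed every other condition, with median antibody shares of 23.7%, 36.4%, 23.3% and 12.7%, so some cells rich in antibody RNA are not among the 192.

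The label held for 188 of the 192 members (97.9%), in which 1 heavy chain class made up most of at least 10 heavy constant UMIs. The data go against it for the other 4. In these, Jchain had 1 or 2 UMIs and heavy constant genes 0 to 3. The one in GAL replicate 1 held 17213 UMIs of Scgb1a1, the main secretory protein of airway club cells, among 32834 in all. Of the 2 in GAL replicate 2, one held 14078 Scgb1a1 UMIs among 29731 and the other 610 of the surfactant gene Sftpc among 7178. The one in WT replicate 1 held 889 Sftpc UMIs among 6176. They are counted as members below, and each result they touch is also given without them. Some members with a class also held RNA of other cell types. One of GAL replicate 1 held 2879 of the 2960 alveolar type 2 marker UMIs of that library's members with a class, and single members held up to 204 monocyte, 254 alveolar macrophage and 167 fibroblast marker UMIs.

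Plasma cells were a small share of every library, and the genotypes overlapped. They made up 0.263% of kept cells in GAL replicate 1 (32 of 12148, exact Clopper-Pearson 95% interval 0.1802 to 0.372%) and 0.665% in GAL replicate 2 (79 of 11887, 0.527 to 0.828%). In WT they made up 0.364% of replicate 1 (51 of 14012, 0.271 to 0.478%) and 0.195% of replicate 2 (30 of 15416, 0.131 to 0.278%). GAL replicate 2 was the highest, and the other GAL library lay between both WT libraries. The means were 0.464% ± 0.284 (SD, n = 2) in GAL and 0.279% ± 0.120 (SD, n = 2) in WT, a ratio of 1.66 (exact two-sided permutation test over libraries, p = 0.667, where 2 against 2 cannot go below 0.333). Without GAL replicate 2 the ratio was 0.943. With cells thinned to 1000 UMIs and shallower cells left out it was 2.17, and without the cells of highest doublet score, which left 31, 58, 34 and 3 members, it was 2.78. In both of these settings both GAL libraries lay above both WT libraries (exact permutation p = 0.333, the smallest possible). The intervals cover counting error only, and the shares are of cells recovered after digestion.

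Antibody RNA dominated these cells. Antibody genes took a median of 41.9% and 49.5% of a member's UMIs in the GAL libraries and 41.4% and 30.3% in the WT libraries, and in members with a class the share ran from 4.90% to 73.02%. Both GAL medians lay above both WT medians, by 9.87 percentage points on average (exact permutation p = 0.333, the smallest possible). Without the members that carry division genes, described below, the difference was 6.07 points and the groups overlapped. They also overlapped without the cells of highest doublet score, where it was 16.6 points (exact permutation p = 0.667). Leaving out 1 library at a time gave 4.30 (without WT replicate 2) to 15.4 points (without WT replicate 1). The 192 cells held 56.3% and 62.8% of all antibody UMIs of kept cells in GAL and 70.7% and 46.0% in WT. They held 64.4% to 81.9% of the Igha UMIs.

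**Figure D1:**
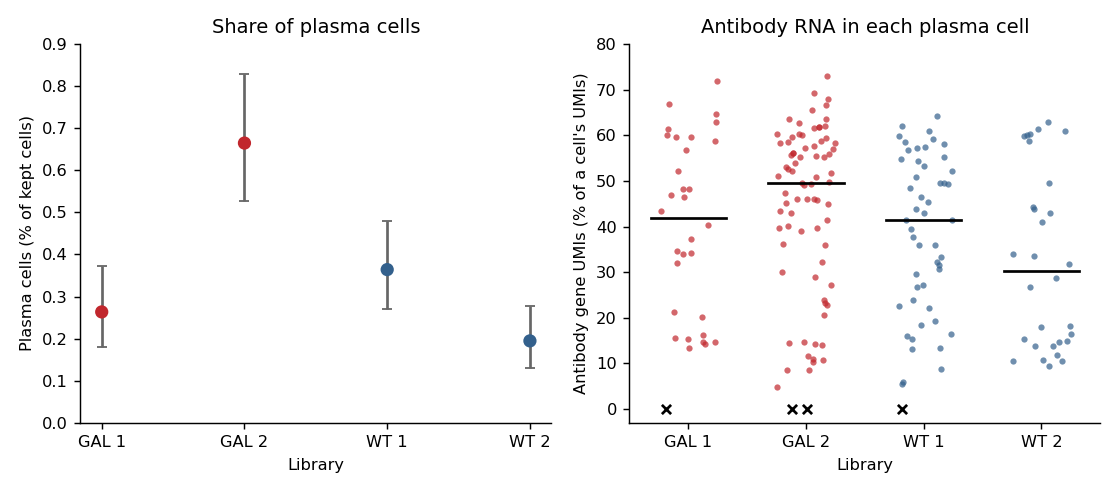
Left: share of kept cells that are plasma cells, in percent, in each library (points, red for GAL and blue for WT), with exact 95% binomial intervals as bars; GAL replicate 2 stands highest at 0.665%. Right: share of each plasma cell's UMIs that come from antibody genes, 1 point per cell, with the median of each library as a line and the 4 cells without an antibody class as crosses near 0.

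IgA was the leading class in every library. It was carried by 31 of 32 members in GAL replicate 1 (96.9%), 54 of 79 in GAL replicate 2 (68.4%), 35 of 51 in WT replicate 1 (68.6%) and 26 of 30 in WT replicate 2 (86.7%). IgG was carried by 0, 17, 11 and 1 members and IgM by 0, 6, 4 and 3. IgE led in 0 of 192. GAL replicate 2 and WT replicate 1, of different genotypes, had nearly the same make-up, and the absence of IgG in GAL replicate 1 (0 of 32) has an exact 95% interval up to 10.9%. The IgA share averaged 82.6% ± 20.2 in GAL and 77.6% ± 12.8 in WT (SD, n = 2, exact permutation p = 1). That of IgG averaged 10.8% ± 15.2 and 12.5% ± 12.9 (SD, n = 2, exact permutation p = 0.667). That of IgM averaged 3.797% ± 5.37 and 8.92% ± 1.53 (SD, n = 2, exact permutation p = 0.333, adjusted over the 5 outcomes 0.833). Without GAL replicate 1 the IgA difference was -9.29 points and the IgG difference 9.07, and without WT replicate 1 they were -4.05 and 7.43, each of opposite sign to that of all libraries.

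**Figure D2:**
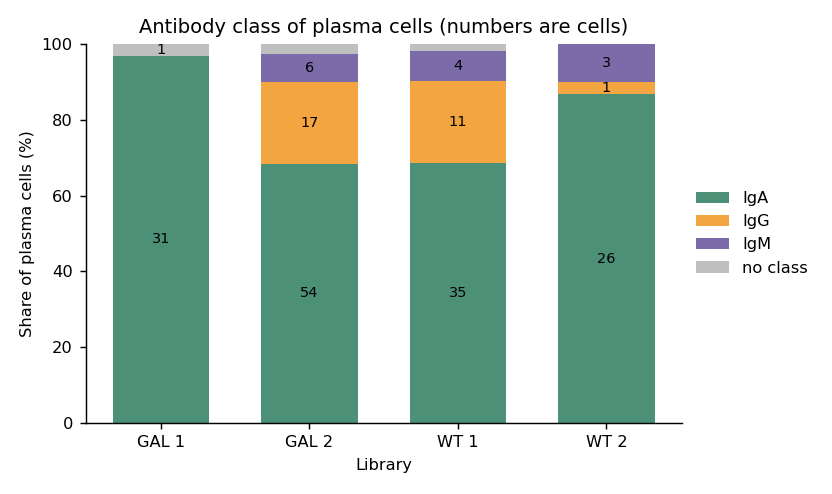
Share of plasma cells of each library, in percent, by antibody class, with the number of cells written in the larger segments. IgA leads in all 4 libraries, and IgG takes 17 and 11 cells in GAL replicate 2 and WT replicate 1.

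Within IgG, each cell was given over to 1 subclass gene. In the 29 IgG members no second subclass had more than 12 UMIs beside a leading count of 162 to 4065. GAL replicate 2 held 13 Ighg2c and 4 Ighg2b cells. WT replicate 1 held 4 Ighg3, 4 Ighg2b, 2 Ighg2c and 1 Ighg1 cells, and the only IgG cell of WT replicate 2 used Ighg2b. Sums of these genes therefore rest on few cells: 955 of the 956 Ighg1 UMIs of WT replicate 1 were in 1 member. Ighg2c and related IgG genes are close paralogs, and reads could be split among them by the authors' counting. Kappa was the light chain of 30, 75, 50 and 29 members and lambda of 1, 2, 0 and 1.

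Variable genes had fewer UMIs than constant genes, with medians of 5 heavy V, 27.5 light V and 1353 heavy constant UMIs per member. A leading heavy V gene (at least 5 UMIs and over 50% of heavy V UMIs) was found in 98 members and a leading light V gene in 147. The 38 heavy and 42 light V genes made 76 distinct pairs in the 91 members with both. Of these pairs, 1 was found in more than 1 library, Ighv5-17 with Iglv1. The pair shared by the most cells, chosen after its values were seen, was Ighv1-50 with Igkv1-110, in 6 cells of WT replicate 1, of which 4 made IgA, 1 IgG and 1 IgM. In GAL replicate 2, Ighv6-3 with Igkv1-133 was shared by 3 cells, 2 of IgG and 1 of IgM. Shared V gene names do not show shared rearrangements, and with a minimum of 10 UMIs and 80% of V UMIs no cells of 1 library and class shared a pair. Iglv1 should be read with care: it led in 39 members, 35 of which used kappa, and it had UMIs in 153 of 192 members, and whether its reads belong to related segments was not tested.

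Homing receptors differed between the classes. Ccr10 encodes the receptor for CCL28, a chemokine of mucosal epithelium. It had a UMI in 15 of 31 IgA members of GAL replicate 1, 43 of 54 of GAL replicate 2, 16 of 35 of WT replicate 1 and 12 of 26 of WT replicate 2. In IgG members it had one in 2 of 17 in GAL replicate 2, 0 of 11 in WT replicate 1 and 0 of 1 in WT replicate 2. Pooled, these were 58.9% of IgA members (86 of 146) against 6.90% of IgG members (2 of 29, exact 95% interval 0.846 to 22.8%). IgM members lay between, with a Ccr10 UMI in 4 of 13 (30.8%, exact 95% interval 9.09 to 61.4%). By library the IgM counts were 3 of 6 in GAL replicate 2, 1 of 4 in WT replicate 1 and 0 of 3 in WT replicate 2. Median depths were 13039 UMIs per cell in IgA, 11084 in IgG and 12653 in IgM members. Among B cells 0.117% to 0.472% had a Ccr10 UMI, and among endothelial cells 0% to 0.186%. Members of 1 library share their source, so these class values are a description. The pooled IgA values cover all 4 libraries, and the IgG and IgM values the 3 libraries that held such cells.

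Other receptors, given here pooled over the libraries in the same way, followed other patterns. Cxcr3, a receptor for interferon-induced chemokines, had a UMI in 9 of 29 IgG members (31.0%) and 14 of 146 IgA members (9.59%). Cxcr4, the bone marrow homing receptor, had one in 9 of 29 and 27 of 146 (18.5%). Ccr9, a receptor for gut homing, was found in 15 of 146 IgA members (10.3%) and 0 of 29 IgG members. The exact 95% interval of the IgG share, which covers counting error only, ran up to 11.9% and so includes the IgA share. Itga4, which pairs with Itgb7 or Itgb1 to bind vessel walls, was found in 80.1% of IgA and 86.2% of IgG members. Jchain is a rule gene, so its detection is shaped by the choice of cells and is given as a description. It was detected in 100% of IgG members as well, at 49447 non-antibody CPM against 79285 in IgA members and 94275 in IgM members. Non-antibody CPM is the usual CPM scale with only UMIs outside the antibody genes in the denominator. On this scale Ccr10 stood at 242 in IgA, 9.99 in IgG and 214 in IgM members. Of the 19 Ccr10 UMIs of IgM members, 18 were in GAL replicate 2.

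Ly6c2 and Slpi were higher in IgG than in IgA members. They were split by class after their values were seen, and both are among the 15 genes with the highest ratio to B cells. Ly6c2, which has near-identical paralogs that could share its reads, encodes a GPI-anchored surface protein of leukocytes, and Slpi a secreted protease inhibitor. In non-antibody CPM, Ly6c2 stood at 11156 in the IgG and 4492 in the IgA members of GAL replicate 2, and at 9240 and 1690 in WT replicate 1. The single IgG cell of WT replicate 2 held 12970, against 788 in the IgA members there. In the IgA members of GAL replicate 1, the library without IgG, Ly6c2 stood at 780. IgG members were thus above IgA members in all 3 libraries that held both. For Slpi the same pairs were 12137 and 6592, 8726 and 3253, and 4747 and 1623, with the same order in each library. IgM members were few, with 6, 4 and 3 cells in GAL replicate 2, WT replicate 1 and WT replicate 2. In that order Ly6c2 stood at 6263, 9656 and 0 in them, and Slpi at 5789, 1055 and 0. The 3 cells of WT replicate 2 had a median of only 2472 UMIs. In WT replicate 1 the IgM value of Ly6c2 was thus above the IgG value.

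Against B cells, plasma cells carried the secretory apparatus at far higher levels. B cells (5015 cells with Ms4a1 and Cd79a UMIs, some with Jchain counts as high as 809, so that plasma cell RNA is among theirs too) were compared in non-antibody CPM. The 188 members with a class were used, levels are means ± SD over 4 libraries, and no test is given because the rule chose the cells on their UMIs. Of 590 genes with a plasma cell level of at least 200 on that scale, antibody genes left out, 300 were above B cells in all 4 libraries and 160 below, with a median ratio of 1.28.

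Chaperones and folding enzymes were higher in nearly every case. Of the 26 genes of the ER folding list, 25 were above B cells in all 4 libraries, and their sum was 6.68 times that of B cells. Hsp90b1 (GRP94), the ER member of the HSP90 family, stood at 8460 ± 1955 against 772 ± 65.3. Hspa5 (BiP), which holds free heavy chains in the ER, stood at 2241 ± 527 against 568 ± 83.4. Txndc5, a disulfide isomerase, stood at 1540 ± 353 against 69.0 ± 14.98. Pdia4, another isomerase, stood at 1140 ± 226 against 90.6 ± 17.8, and Creld2, an ER stress-induced calcium-binding protein, at 808 ± 360 against 52.0 ± 10.5. Creld2 ranged from 412 in GAL replicate 1 to 1214 in WT replicate 1.

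These genes are known targets of the unfolded protein response, whose factors XBP1 and ATF6 act at a promoter motif, the ER stress response element. Its letters, CCAAT, any 9 bases and CCACG, were searched on both strands in the 250 bases before the RefSeq start (GRCm38.p6). They were found in 37 of 32851 promoters (0.113%). Of the 22 ER folding genes with a promoter in that table, 7 held it: Calr, Canx, Creld2, Dnajc3, Hsp90b1, Hspa5 and Pdia6. Of the rule genes, 1 of 6 did, Derl3, and of the ER-associated degradation genes 1 of 12, Syvn1. The plasma cell identity list (16 promoters) held 0. So did the lists for translocation (15 promoters), N-glycosylation (19), traffic (21), B cell identity (15), ribosomal proteins (14) and nuclear oxidative phosphorylation (22). The promoters of 5 of these genes are shown because their transcripts were several times higher than in B cells. Derl3 is a rule gene, so its level is a description. Each runs 5′ to 3′ on the gene's strand up to the base before the start, and capitals mark the matches on either strand.
Hspa5, chr2:34771840-34772089 (plus strand): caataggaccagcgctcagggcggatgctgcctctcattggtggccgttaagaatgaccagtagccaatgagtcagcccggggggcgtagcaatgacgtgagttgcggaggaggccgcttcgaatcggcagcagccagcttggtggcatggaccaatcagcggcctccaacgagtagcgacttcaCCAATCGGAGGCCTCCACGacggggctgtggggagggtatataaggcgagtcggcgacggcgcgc
Hsp90b1, chr10:86705445-86705694 (minus strand): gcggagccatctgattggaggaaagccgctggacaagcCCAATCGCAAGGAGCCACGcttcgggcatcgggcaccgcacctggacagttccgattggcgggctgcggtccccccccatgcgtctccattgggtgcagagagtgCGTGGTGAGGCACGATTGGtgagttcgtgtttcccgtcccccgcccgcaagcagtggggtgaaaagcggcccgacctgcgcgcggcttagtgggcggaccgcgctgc
Pdia6, chr12:17266339-17266588 (plus strand): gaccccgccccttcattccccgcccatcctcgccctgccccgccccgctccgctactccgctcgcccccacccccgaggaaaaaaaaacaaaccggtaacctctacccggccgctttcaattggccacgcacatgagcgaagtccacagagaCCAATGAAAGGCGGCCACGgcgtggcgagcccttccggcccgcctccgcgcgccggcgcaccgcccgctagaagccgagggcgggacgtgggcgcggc
Creld2, chr15:88819396-88819645 (plus strand): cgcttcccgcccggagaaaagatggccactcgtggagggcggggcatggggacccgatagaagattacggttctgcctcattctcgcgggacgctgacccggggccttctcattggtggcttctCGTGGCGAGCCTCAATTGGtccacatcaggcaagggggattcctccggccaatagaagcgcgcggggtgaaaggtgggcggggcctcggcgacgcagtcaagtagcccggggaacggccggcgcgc
Derl3, chr10:75893148-75893397 (plus strand): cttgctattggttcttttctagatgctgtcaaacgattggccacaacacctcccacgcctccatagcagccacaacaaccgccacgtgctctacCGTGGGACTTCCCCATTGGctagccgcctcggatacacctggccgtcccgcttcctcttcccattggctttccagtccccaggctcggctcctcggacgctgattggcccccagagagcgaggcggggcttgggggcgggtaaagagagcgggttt
In Hspa5 the match begins 65 bases before the start, in Pdia6 98, in Creld2 126 and in Derl3 156. Hsp90b1 holds 2, at 212 and 107 bases before the start and on opposite strands. A match is a description of letters and does not show that a factor binds there.

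The steps before and after folding were higher as well. Of 22 genes for entry into the ER, 20 were above B cells in all 4 libraries, with a sum 4.69 times as high: Sec61b, of the translocation channel, at 2314 ± 376 against 428 ± 92.6, Sec11c, of signal peptidase, at 2239 ± 247 against 230.2 ± 21.4, and Ssr4, of the channel's associated complex, at 2111 ± 367 against 191 ± 12.5. Of 14 genes that return misfolded proteins for degradation, 13 were above. Edem1 stood at 870 ± 280 against 59.8 ± 7.53 and Edem2 at 420.1 ± 167 against 22.1 ± 4.38, both lectins that pick out misfolded glycoproteins. Of 20 N-glycosylation genes 17 were above, among them Krtcap2 of the oligosaccharyltransferase at 1165 ± 191 against 206 ± 21.9. Of 24 genes of ER to Golgi traffic 22 were above, with Lman1, a cargo receptor, at 602 ± 93.9 against 48.2 ± 11.2. Sums for these last 2 lists differed less, by 2.89 times for N-glycosylation and 2.94 times for ER to Golgi traffic.

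All 22 genes of the B cell identity list were below B cells in all 4 libraries, among them Cd79a, which was used to choose the B cells. Ms4a1 was required in the B cells and had to be at 0 in members. Lower B cell RNA in members is thus in part set by the choice of cells. Pax5, the B cell master regulator, stood at 2.01 ± 2.54 against 303 ± 47.2. Cd74, the class II invariant chain, was retained more, at 4580 ± 751 against 11593 ± 2067. Of the 22 genes of the plasma cell identity list 17 were above B cells in all 4 libraries. Prdm1 stood at 170.2 ± 27.4 against 18.5 ± 4.26 and Cd28, a costimulatory receptor that supports plasma cell survival, at 235 ± 46.9 against 10.6 ± 2.51. Cd38 was below, at 9.98 ± 6.36 against 53.4 ± 9.51, and so was Ikzf3, at 94.4 ± 35.6 against 223 ± 37.2.

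The 15 genes with the highest ratio to B cells outside the rule were headed by Scgb1a1, whose place came from 2 members without antibody RNA: without them its ratio was 0.606. Ly6c2 followed, at 780, 5848, 3793 and 1717 in GAL replicates 1 and 2 and WT replicates 1 and 2, against 21.9 to 168 in B cells. The others were Txndc5, Edem2, Creld2, Prdx4, Edem1 and Pdia4 of the ER, Pycard, Glipr1, Trp53inp1, Ckap4, Tmem176a, Tent5c and Slpi. Pycard, the inflammasome adaptor, stood at 2782, 846, 1131 and 2450. Tent5c, a poly(A) polymerase that stabilizes antibody mRNA, stood at 565 ± 82.6 against 44.1 ± 24.6, and Trp53inp1 at 789 ± 90.8 against 50.6 ± 7.58. Of the homing list, Ccr10 had the largest ratio, at 186 ± 86.9 against 1.98 ± 1.97, while Ccr7, a receptor for homing to lymph nodes, was below, at 18.5 ± 8.23 against 639 ± 85.6.

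**Figure D3:**
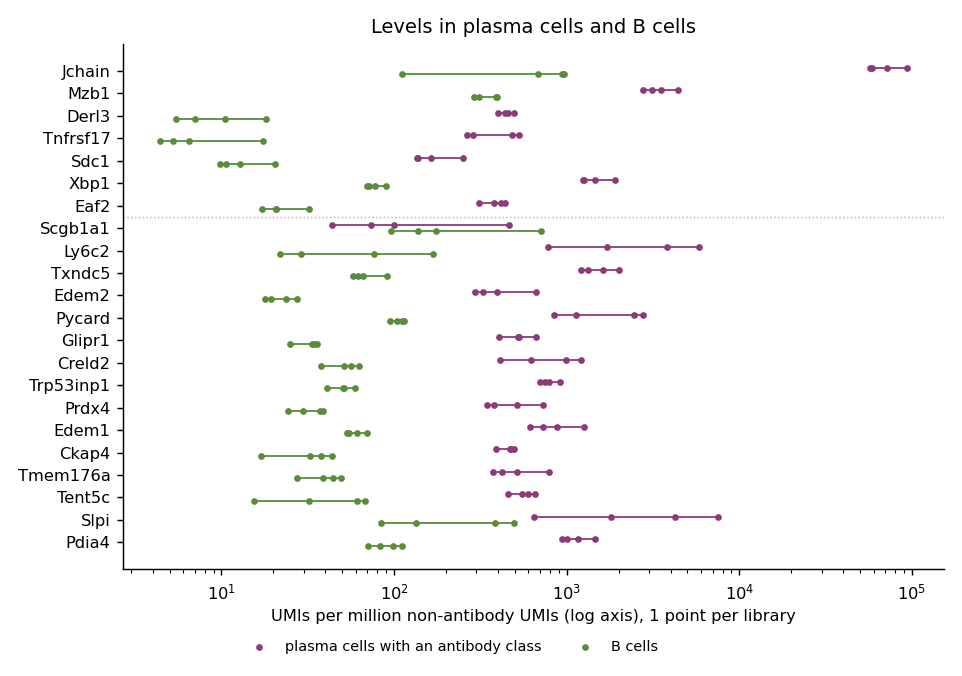
Non-antibody CPM on a log axis, 1 point per library joined by a line from the lowest to the highest, for plasma cells with an antibody class (purple) and B cells (green). The 7 genes above the dotted line chose the cells; below it are the 15 genes with the highest ratio, where Scgb1a1 overlaps between the cell types once the members without antibody RNA are left out.

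A minority of plasma cells carried cell division RNA. At least 3 of 9 division genes (Mki67, Top2a, Cdk1, Ccnb1, Ccnb2, Ccna2, Birc5, Cenpa and Ube2c) had a UMI in 24 of 192 members, all with an antibody class, 13 members had exactly 2 and 105 had 0. By library these were 2 of 32 members of GAL replicate 1 (6.25%, exact 95% interval 0.766 to 20.8%), 6 of 79 of GAL replicate 2 (7.59%, 2.84 to 15.8%), 10 of 51 of WT replicate 1 (19.6%, 9.82 to 33.1%) and 6 of 30 of WT replicate 2 (20%, 7.71 to 38.6%). B cells met the same criterion in 0.270% to 0.641% of cells and T cells in 3.34% to 8.41%. Their median depths were lower than those of plasma cells, at 1611 to 2321 UMIs in B cells and 2308 to 3572 in T cells. Deeper cells meet such a criterion more easily, and the cell types were not compared at equal depth. For plasma cells, both GAL libraries were below both WT libraries.

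The share averaged 6.92% ± 0.951 in GAL and 19.8% ± 0.277 in WT (SD, n = 2), a difference of -12.9 percentage points (exact permutation p = 0.333, the smallest possible). With each member thinned to 2000 non-antibody UMIs, which left out 4, 9, 1 and 4 shallower members, the shares were 0%, 4.29%, 16.0% and 11.5%. Without the cells that Scrublet, a doublet caller, scored highest they were 6.45%, 3.45%, 11.8% and 0%, the groups overlapped and the difference was -0.932 points (exact permutation p = 1). That removal took 1, 21, 17 and 27 members of the 4 libraries and left 3 in WT replicate 2. It took 16 of the 24 members with division genes and 48 of the other 164 members with a class. Whether these high scores mark doublets was not tested.

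Members with division genes had a lower antibody share of UMIs. This share had a median of 14.6% (range 4.90 to 33.4%) against 48.1% (9.52 to 73.02%) in the other members with a class. Counts per cell differed in the same direction, with medians over all libraries of 648.5 against 1603 heavy constant UMIs, but by unequal amounts in the libraries. These medians were 797.5 against 1013 in GAL replicate 1, 505.5 against 2230 in GAL replicate 2, 683.5 against 1603 in WT replicate 1 and 581 against 638.5 in WT replicate 2. The median of non-antibody UMIs was higher in members with division genes, at 11964 against 6355. More such UMIs make the criterion easier to meet and also lower the antibody share. The 2 sets of members were not compared at equal non-antibody depth, so the part of this in the difference was not tested. Of the 24, 21 made IgA, 3 IgG and 0 IgM. In each library the median antibody share was lower in members with division genes, at 14.9% against 46.4%, 11.3% against 51.7%, 15.7% against 47.5% and 15.5% against 37.5%.

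**Figure D4:**
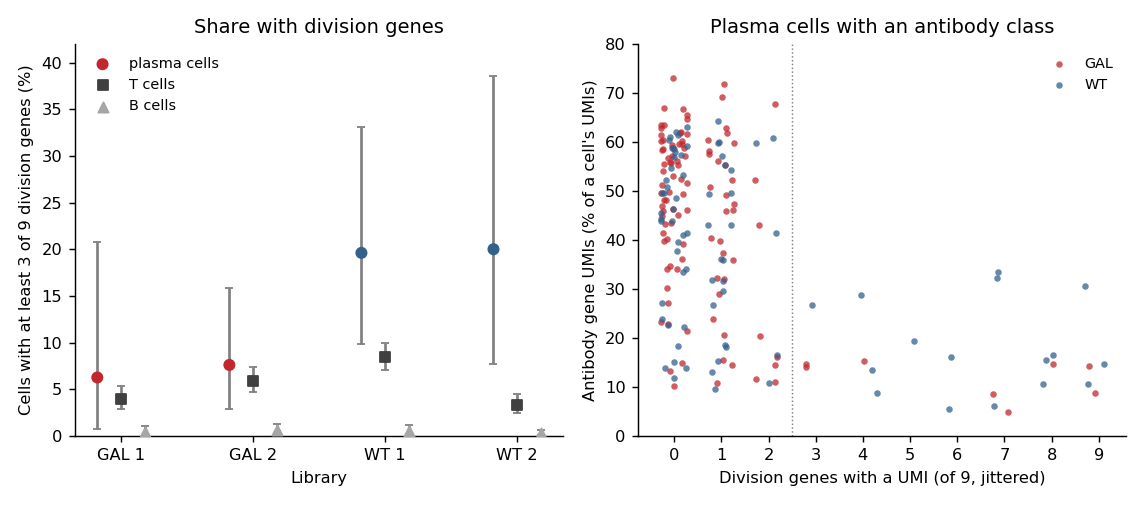
Left: percent of plasma cells, T cells and B cells with a UMI in at least 3 of 9 division genes, by library, with exact 95% binomial intervals; the WT plasma cells stand at 19.6% and 20% and the GAL plasma cells at 6.25% and 7.59%. Right: percent of UMIs from antibody genes against the number of division genes detected, 1 point per plasma cell with a class; right of the dotted line (at least 3 genes) no cell is above 33.4%.

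The following genes were looked up after the split was seen, in non-antibody CPM summed over the cells, and members with division genes come first. Ly6c2 stood at 292 against 4929, lower in all 4 libraries. Prdm1 stood at 154 against 161 and Irf4 at 223 against 184. Of the rule genes, which chose the cells and are given as a description, Sdc1 stood at 49.2 against 231, Xbp1 at 881 against 1788, Derl3 at 252 against 495, Tnfrsf17 at 364 against 344 and Mzb1 at 3329 against 3622. Itga4 was higher, at 957 against 426, in 3 of 4 libraries. The ER folding list summed to 0.825 times and the plasma identity list to 0.412 times the level of the other members, and glycolysis genes to 1.79 times. Immediate early genes, which dissociation can induce, summed to 0.313 times. Alveolar macrophage markers stood at 1022 against 563 over all libraries, but the direction was not the same in each library. They stood at 64.8 against 119 and 127 against 242 in GAL, and at 1966 against 1488 and 1105 against 821 in WT. Airway epithelial markers stood at 75.4 against 162, lower in all 4 libraries. The part of these markers in the differences above was not tested.

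Between genotypes, very few genes passed the test in plasma cells. UMIs were summed over the members of each library and tested with edgeR, and 1 of 3735 genes tested (0.0268%) was called at an adjusted p under 0.05, while 225 had an unadjusted p under 0.05. The called gene was Scgb1a1, which rose in GAL by 9.07 on the log2 scale (SE 0.666, edgeR adjusted p = 0.00655). It came from the 2 members without antibody RNA: without the 4 such members its difference was 1.47 (adjusted p = 0.909), and 0 of 3579 genes (0%) were called, with 208 at an unadjusted p under 0.05. DESeq2 called 8 of 3735 (0.214%): Scgb1a1, Scgb3a2, Cyp2f2, Ccl6, Cxcl2, Mki67, Igkv3-10 and Ighv1-80. With 1 library left out, edgeR called 86 genes (without GAL replicate 1), 22 (without GAL replicate 2), 70 (without WT replicate 1) and 12 (without WT replicate 2), and with no filter on low counts 175. Both GAL libraries lay above both WT libraries for 606 genes (16.2%) and below for 701 (18.8%).

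The targeted gene was too sparse to check the labels in these cells. Galt had 4 and 3 UMIs in the GAL plasma cells and 6 and 2 in the WT plasma cells, and was not tested. Of the 14 genes of galactose use 3 passed the filter on low counts, Galk1, Ugp2 and B4galt1, the enzyme that adds galactose to antibody glycans, and 0 were called. Their log2 differences were -0.15, -0.07 and 0.15 (edgeR adjusted p = 0.999 in each). Galk1 had 10, 26, 19 and 8 UMIs.

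Cell division genes had lower values in GAL without passing the test. Of 18 tested (of 21 in the list), 0 were called, 0 were higher and 16 had both GAL libraries below both WT libraries, beside 18.8% of all genes tested, with a median log2 difference of -1.21 beside -0.00 for all genes. Mki67, the standard marker of cycling cells, stood at 49.7 and 104 CPM (TMM-normalized, antibody genes included, as in all tests below) in GAL and 208 and 393 in WT, a log2 difference of -1.90 (SE 0.427, edgeR adjusted p = 0.403), and DESeq2 gave an adjusted p of 0.0472. Birc5, a mitotic survivin, stood at 14.9 and 24.9 against 72.3 and 108 (-2.06, SE 0.392, edgeR adjusted p = 0.286). Hist1h1b, a histone made in S phase, stood at 9.93 and 23.9 against 85.7 and 365 (-3.54), and Stmn1 at 64.6 and 68.6 against 138 and 247 (-1.50). Without the 4 members lacking antibody RNA the list's median was -1.13. The share of members with division genes moves with these values, as does the doublet score given with it, and their part was not tested.

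Of 9 antibody constant genes tested 7 were higher in GAL, 2 of them with both GAL libraries above both WT libraries (beside 16.2% of all genes), with a median log2 difference of 0.46 and 0 called. Igkc stood at 303356 and 373288 CPM in GAL and 259683 and 226570 in WT (log2 0.48, SE 0.200, edgeR adjusted p = 0.811). Igha stood at 101028 and 114013 against 84638 and 71238 (0.46, SE 0.206), and these are the 2 without overlap. Ighg1 (-5.74) and Ighg2b (-0.75) were lower in GAL, both with overlapping groups, and Ighg1 rests on 1 cell. Jchain, a rule gene given as a description, stood at 41364 and 60520 against 34363 and 34684. Of 20 plasma identity genes tested 16 were higher and 9 had both GAL libraries above both WT libraries, with a median of 0.27 and 0 called. Edem1 stood at 507 and 811 against 440.3 and 362 (0.72) and Txndc5 at 936 and 1292 against 805 and 708 (0.56). Ly6c2 overlapped, at 452 and 3770 against 2289 and 1008, and without GAL replicate 2 its log2 difference of 0.36 became -1.83.

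Folding and secretion genes were centred near 0. Medians of the log2 difference were -0.03 for 26 ER folding genes, 0.08 for 22 of ER entry, 0.22 for 12 of ER-associated degradation, -0.01 for 22 of ER to Golgi traffic and -0.05 for 19 of N-glycosylation, with 0 called in each. Hspa5 stood at 1008 and 1492 against 1760 and 1240 CPM, Hsp90b1 at 3773 and 5283 against 6736 and 4733, and in both the groups overlapped. Ppp1r15a (GADD34), which restores translation after stress, stood at 124 and 98.7 against 45.4 and 43.3 (1.31, SE 0.3003, edgeR adjusted p = 0.403). Asns, asparagine synthetase, stood at 44.7 and 46.7 against 21.8 and 24.7 (0.99). Cytosolic ribosomal proteins had a median of 0.02 over 24 genes.

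Of 12 homing and adhesion genes tested, 4 were higher in GAL, with a median log2 difference of -0.03 and 0 called. Both GAL libraries lay above both WT libraries for 1 of them and below for 1, beside 16.2% and 18.8% of all genes. The 1 above was Ccr10, at 127 and 187 CPM in GAL and 55.5 and 83.5 in WT (log2 1.22, SE 0.332, edgeR adjusted p = 0.507). Mitochondrial transcripts were higher in 9 of 12 tested, beside 1849 of all 3735 genes, and 8 were without overlap, beside 16.2% of all genes, with a median of 0.52 and 0 called. mt-Nd3 stood at 181 and 140.2 against 65.5 and 27.8 (1.69, SE 0.395) and mt-Co3 at 2238 and 2745 against 1521 and 1407 (0.77). Of 16 immediate early genes 14 were higher, with a median of 0.64 that was 0.24 without the members lacking antibody RNA. For Fos the values were 740 and 343 against 324 and 223, and its difference of 0.97 became 0.40 without those members.

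RNA of alveolar macrophages had lower values in GAL without passing the test. Their markers were lower in GAL in 4 of 4 tested, with a median of -2.32 and 0 called. A marker can pass the filter on low counts through the WT libraries alone, so this direction is not independent of the filter. Over the whole list of 8 markers, 7 to 8 were detected in each library and the sum was 65.5 and 124 CPM of all UMIs in GAL against 986 and 599 in WT. A single member held 254 of the 586 marker UMIs of WT replicate 1, and another 83 of the 179 of WT replicate 2. Chil3, a secreted macrophage protein, stood at 37.3 and 116 against 857 and 389 CPM (-2.95, SE 0.555, edgeR adjusted p = 0.286). Of the other genes of smallest p that did not pass, Cxcl2 (-1.80), Lgals3 (-1.84), Cd9 (-1.33) and S100a6 (-0.99) were lower in GAL, and Gsn (1.55), Cd81 (0.91), Cbr2 (3.79), Scgb3a2 (6.78) and Cyp2f2 (7.27) were higher. Cbr2, Scgb3a2 and Cyp2f2 are club cell genes that did not pass the filter on low counts without the 4 members lacking antibody RNA. Without the cells of highest doublet score, Cxcl2 (1.97) and Cd9 (0.38) had the opposite sign. The part of macrophage RNA in the genotype differences of plasma cells was not tested.

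**Figure D5:**
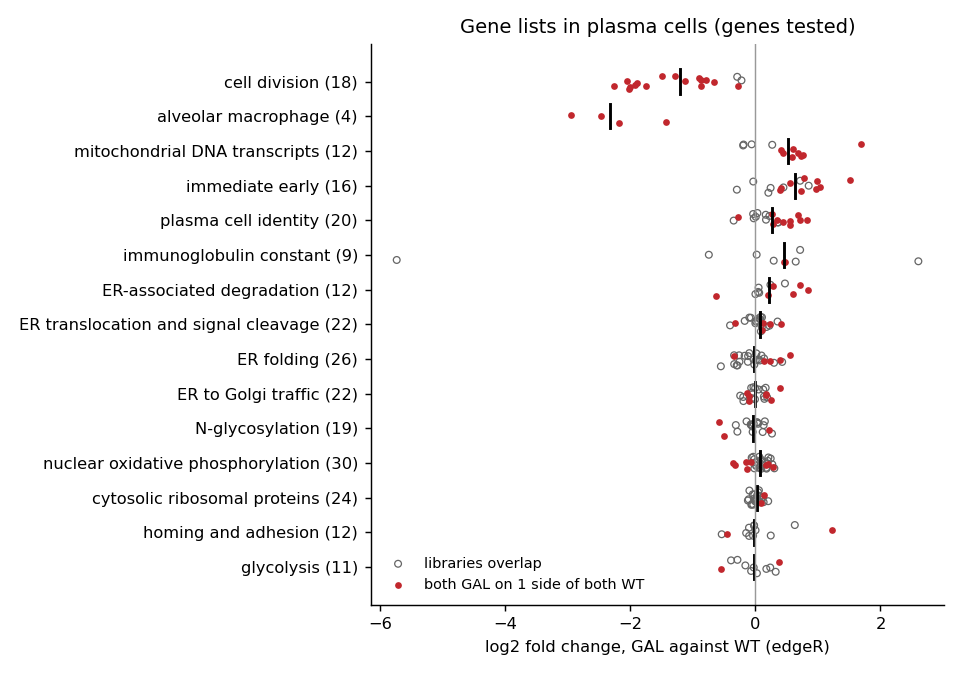
Log2 fold change of GAL against WT from edgeR for the tested genes of 15 lists (number tested in brackets), 1 point per gene. Filled points have both GAL libraries on 1 side of both WT libraries, open points overlap, and the black bars are list medians, lowest for the alveolar macrophage and cell division lists. None of the genes drawn was called.

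The difference between genotypes was also tested against that in B cells, in 1 model with the library as a block. Of 9595 genes 19 (0.198%) were called, 13 lower in GAL in plasma cells relative to B cells and 6 higher. Of the division list, 4 were among them: Mki67, Top2a, Ube2c and Birc5. Mki67 had a difference of -2.93 (edgeR adjusted p = 0.00219), from -1.90 in plasma cells and 1.01 in B cells, and Top2a one of -2.78 (edgeR adjusted p = 0.00580). In B cells Mki67 stood at 16.9 and 57.6 CPM of all UMIs in GAL and 19.4 and 20.5 in WT. The B cell groups thus overlapped, and only GAL replicate 2 was above WT. Between 3 and 7 B cells of a library met the division criterion. Another 4 were linker and core histone genes, of which Hist1h1b had -3.52 (edgeR adjusted p = 0.0105). With only members that have a class, 23 genes were called and 16 of the 19 were among them; Scgb1a1, Cyp2f2 and Scgb3a2 were not. Leaving out 1 library at a time gave 101 (without GAL replicate 1), 69 (without GAL replicate 2), 98 (without WT replicate 1) and 65 (without WT replicate 2). This fit was not run without the cells of highest doublet score.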

How the data were processed

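Lung cells of 2 GAL and 2 WT libraries were profiled with the SeekOne droplet kit, per the labels' protocols. The authors deposited UMI counts per gene and cell barcode (32285 genes), and the submitters' processing notes name fastp, STAR, Seurat and GRCm38 (mm10), without versions. Cell filters and annotations of the authors were not used here. Cells were chosen, summed and thinned with Python 3.11.15, numpy 2.4.6, scipy 1.17.1 and pandas 2.3.3. Doublet scores came from Scrublet in scanpy 1.11.5, and doublets were left in except in an alternative that removed the highest scores of each library, up to 0.8% per 1000 cells. B cells had UMIs of Ms4a1 and Cd79a and none of Siglech, Cd3e, Csf1r and Cdh5. Antibody genes are the 392 immunoglobulin genes of the files. Counts of the 4 libraries were tested with edgeR 4.0.16 in R 4.3.3 (filterByExpr, TMM, quasi-likelihood test, Benjamini-Hochberg adjustment), and with DESeq2 1.42.0 as an alternative. Differences of shares were tested with an exact two-sided permutation test over libraries. The edgeR script was tested on simulated data.

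The members and lists were chosen with earlier results of these data known. The genes named are Galt, the rule genes, antibody constant genes, up to 5 per list by level and 4 by p, called genes, the 8 of smallest p in each direction with separated groups and at least 100 CPM, and the 15 with the highest ratio to B cells at 200 CPM or more. Alternatives changed depth, rule, mitochondrial limit, doublets, filter, normalization, tool, antibody genes and libraries. Those without members lacking a class, and all for division genes and antibody share, were chosen after seeing the data.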

Additional observations from a re-analysis of the deposited data

Results flagged for a closer look

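For 19 genes the difference between GAL and WT was not the same in plasma cells as in B cells, by the edgeR interaction test (adjusted p under 0.05). The values are log2 differences, plasma cells minus B cells. Division genes had Mki67 -2.93, Ube2c -3.72, Top2a -2.78, Tpx2 -4.08, Cenpf -4.68, Hmmr -5.49 and Birc5 -2.92. Histone genes had Hist1h1b -3.52, Hist1h1e -1.69, Hist1h4d -2.2 and Hist1h1d -2.8. Antibody genes had Ighg3 -16.25, a fitted value that is no bound, Ighg2b -4.47 and Ighg2c 2.3, and these rest on few cells. Club cell genes had Scgb1a1 8.04, Cyp2f2 6.86, Cbr2 5.03 and Scgb3a2 6.16. Gzma, a granzyme of cytotoxic lymphocytes, had 3.12, with log2 values of 1.27 in plasma cells and -1.93 in B cells. It rests on few counts, 42 UMIs in all plasma cells and 741 in all B cells.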

How the results depend on the processing

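No paired analysis was possible because the labels number no replicates; the numbers used here follow accession order and only name libraries. The ratio of plasma cell shares ran from 0.943 to 2.38 with 1 library left out, below 1 without GAL replicate 2 (0.943). The 1 gene called became 175 with no filter, 8 with DESeq2, 3 without antibody genes, 0 with at least 3 or at least 5 rule genes, without the highest doublet scores, or with class-bearing members only (with and without antibody genes), and 12 to 86 with 1 library left out. The 19 genes of the comparison with B cells became 104 with no filter and 65 to 101 with 1 library left out. The IgA difference was -1.32 points with at least 3 rule genes, -1.06 without the highest doublet scores and -9.29 to 19.2 with 1 library left out. The IgG difference was 0.963, 5.32 and -12.5 to 9.07 in the same order. The 8 cells sharing a V gene pair with another cell of their library and class became 0 under the stricter rule. Of single genes, Itga4 was 0.14 without WT replicate 2 (range with 1 library left out -0.93 to 0.14), Ly6c2 was -1.83 without GAL replicate 2 and -0.10 without WT replicate 2 (range -1.83 to 1.24), and without the highest doublet scores Cxcl2 was 1.97 and Cd9 0.38. The cause of these changes was not tested. With 2 libraries a group, no exact test of a share could go below p = 0.333.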
